A study of Mus musculus with 12 samples.

Results

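Untreated orthotopic lung tumours of mice, called Model, were compared with normal lung, called Control. An orthotopic tumour is one grown in the organ that it models. Of the 12 libraries of the series, 6 were used, 3 Model and 3 Control, chosen by their treatment label, and the other 6, tumours given taurine or proline, were left out. Every gene of the 36254 in the table that passed a filter on low counts was tested, 21446 in all. The sample names give C57 mice for both groups. The tissue label reads lung tumour for all of them, and Control is normal lung by the series' own description. For the tumour line, cell number, time of growth and age and sex of the mice, the written sources used here give nothing. Nothing in the labels says whether the 3 libraries of a group came from separate mice, so the p-values below describe only how these libraries spread.

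The adult lung exchanges gas across alveoli lined by flat type 1 cells and surfactant-making type 2 cells, with capillaries and specialised fibroblasts beneath. Its airways are lined by secretory club cells and ciliated cells. A small set of transcription factors, with Nkx2-1 at its head, sets up these cell types in the embryo and keeps their genes on in the adult. A tumour piece contains malignant cells, host stroma, vessels and immune cells, and whatever lung was cut with it. In bulk RNA, fewer cells of a type and less RNA per cell cannot be told apart.

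Each library held between 56542745 and 67174761 counts, and 23643 to 26576 genes had at least 1. Levels below are CPM, a gene's counts as a share of its library's total, after scaling of the totals by edgeR's TMM method. Fold changes are Model over Control on the log2 scale. The standard error (SE) beside them was derived from the test, as the size of the fold change divided by the square root of its F value. For genes at or near 0 counts in a group this SE can be too small and does not measure the counting error. The first principal component held 84.6% of the variance and separated Model from Control. The second held 5.68% and set Model library 3 apart from the other two Model libraries. Across genes, log2 levels correlated at 0.958 to 0.965 between Model libraries, at 0.97 to 0.972 between Control libraries and at 0.729 to 0.757 between a Model and a Control library. The biological coefficient of variation was 0.395 within Model and 0.239 within Control.

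The markers of normal lung were near 0 in Model. Ager, the receptor that marks type 1 cells, had 7.49, 8.66 and 7.62 CPM in Model, against 2325, 2391 and 2428 CPM in Control. Surfactant protein D, encoded by Sftpd, had 0, 0.531 and 0.379 CPM in Model, against 766, 757 and 655 CPM in Control. The Control libraries thus carried the markers of normal lung, as the series' description has it, and their tissue label does not. The Y chromosome genes Ddx3y, Eif2s3y, Kdm5d and Uty had at most 0.448 CPM in any library. Summed with Xist, they had 366 to 412 CPM. These genes were listed as a check on sex, outside the rule for named genes. Model libraries carried traces of other tissues that differed between them. Summed over 11 skeletal muscle genes, they had 865, 168 and 50.8 CPM, against 17.5, 22.8 and 17.5 CPM in Control. Albumin had 76.3, 95.6 and 0 CPM in Model, against 20, 16.9 and 0.58 CPM in Control, and its gene, Alb, was chosen after its values were seen. Leaving out the genes of such tissue lists, 6380 genes were called higher and 7265 lower.

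Most genes differed, and the falls were the steeper side. Of the 21446 genes tested, 13648 passed an adjusted p of 0.05, which is 63.6%. In Model 6385 genes were higher, which is 29.8% of those tested, and 7263 were lower, which is 33.9%. Over 2-fold, 3437 genes (16.0%) were higher and 5544 (25.9%) lower, and over 16-fold 530 were higher and 2266 lower. The CPM values of the groups did not overlap for 15597 genes, or 72.7%. Over all genes the median change was -0.05 on the log2 scale. Each count of a gene group given below has to be read against these shares.

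The most abundant transcripts changed places. Scgb1a1, the main secretoglobin of club cells, had a mean of 44.7 FPKM in Model and 53732 FPKM in Control. Here FPKM are fragments per kilobase of gene, scaled to the library's total. Its Model mean came almost all from Model library 2, with 0.292, 130 and 4.01 FPKM across the Model libraries. The surfactant gene Sftpc had a mean of 0.902 FPKM in Model and 11233 FPKM in Control. The 20 most abundant genes of Control held 6.34%, 6.18% and 7.15% of all FPKM in the Model libraries, against 31.8%, 30.2% and 26.5% in the Control libraries. In Model the translation factor gene Eef1a1 led, with 3891 FPKM in Model and 1156 FPKM in Control. Lgals1, which encodes the sugar-binding protein galectin-1, had 1469 FPKM in Model and 69.4 FPKM in Control, higher by 4.3 on the log2 scale (SE 0.1, adjusted p = 2.07e-07). Lyz2, the lysozyme of myeloid and type 2 cells, fell by 2.05 on the log2 scale and Cbr2, a carbonyl reductase of club cells, by 5.72. Among abundant genes that did not pass the test were the actin genes Actb, with 1618, 1577 and 1742 CPM in Model and 1750, 1712 and 1743 CPM in Control, and Actg1, and the ferritin gene Ftl1.

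**Figure D1:**
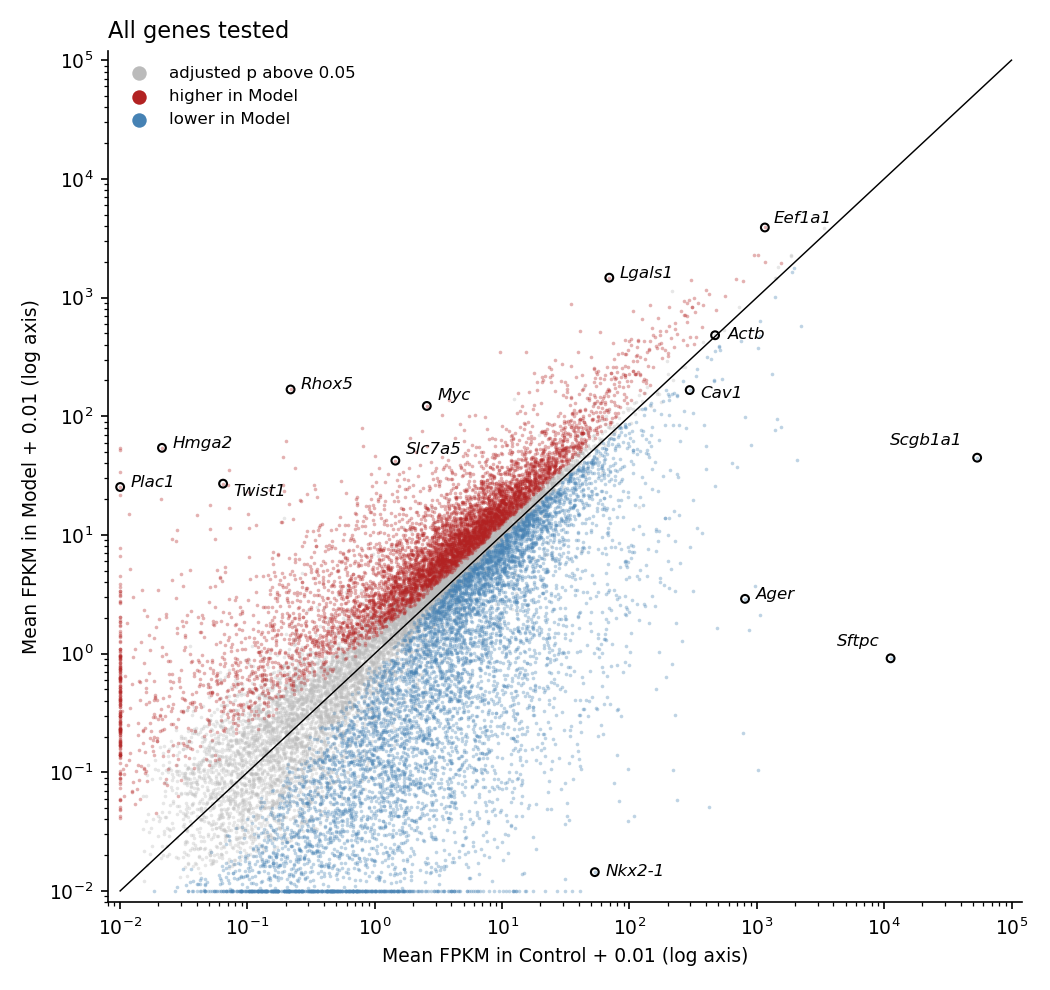
Mean FPKM plus 0.01 of every gene tested, Model on the vertical and Control on the horizontal axis, both logarithmic; each point is 1 gene, means are over 3 libraries, and the line marks equal levels. Scgb1a1 and Sftpc lie far below the line, Hmga2 and Plac1 far above it, and Actb on it; labelled genes were picked as landmarks after their values were seen.

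Of 28 transcription factors of lung lineages, 27 fell and 1, Sox9, rose. The median change was -4.5 on the log2 scale. The fall spanned airway, alveolar, mesenchymal and endothelial factors. Nkx2-1, the master factor of lung epithelium, had 0, 0 and 0.0632 CPM in Model, against 199, 219 and 209 CPM in Control. The log2 fold change was -13.2 (SE 0.36, adjusted p = 3.25e-07). Tcf21, a factor of lung mesenchyme and lipid-storing fibroblasts, had 0.154, 0.273 and 0 CPM in Model, against 117, 103 and 96 CPM in Control (-9.47, SE 0.47, adjusted p = 3.38e-06). Foxj1, which switches on the genes of motile cilia, had 0.0618, 2.73 and 0.142 CPM in Model, against 160, 154 and 118 CPM in Control (-7.17, SE 0.99, adjusted p = 0.000542). For all 3 genes each Model library lay far below each Control library, and Model library 2 held the most Foxj1. Sox9, which marks the growing tips of the embryonic airway and also cartilage, had 12, 12.1 and 20.7 CPM in Model, against 0.628, 0.602 and 0.341 CPM in Control (4.83, SE 0.37, adjusted p = 2.67e-05).

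By family as the deposited annotation assigns it, transcription factors moved unevenly. Over all 1268 transcription factors tested, 397 were higher and 452 lower, with a median of -0.03. Those shares lie near the 29.8% higher and 33.9% lower of all genes tested. The families given here are a selection. Of 73 factors labelled bHLH 16 were higher and 38 lower, of 51 labelled bZIP 11 and 31, and of 10 labelled E2F 7 and 2. Of the 12 T-box factors 2 were higher and 8 lower (median -4.23), and of 29 forkhead factors 6 were higher and 18 lower (median -1.62). The 9 interferon regulatory factors had 0 higher and 8 lower (median -1.48). The 3 orphan receptors of the Nr4a family all fell (median -4.5), and the 3 HMGA genes all rose (median 5.05), with the reservation that Hmga1 and its near copy Hmga1b may share reads. Of 95 homeobox genes, 44 were higher and 33 lower, with a median of 0.72.

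The promoters of a surfactant and a club-cell gene are shown, both taken from the 20 genes with the largest falls. They were picked because they hold CAAGTG, letters described below. Sftpa1, surfactant protein A, had 0.293, 0.402 and 1.63 CPM in Model, against 3047, 3157 and 2918 CPM in Control. Cyp2f2, a club-cell cytochrome, had 1.03, 14.6 and 0.474 CPM in Model, against 3322, 3123 and 2472 CPM in Control. Each window runs from 250 bases before to 50 bases after the gene's start, from RefSeq on GRCm38.p6, read 5′ to 3′ on the gene's strand. Sftpa1 lies at chr14:41131538-41131837 on the plus strand and Cyp2f2 at chr7:27119705-27120004 on the plus strand. Capitals mark CAAGTG, letters found in known Nkx2-1 binding sequences, or CACTTG, the same letters on the other strand.
Sftpa1: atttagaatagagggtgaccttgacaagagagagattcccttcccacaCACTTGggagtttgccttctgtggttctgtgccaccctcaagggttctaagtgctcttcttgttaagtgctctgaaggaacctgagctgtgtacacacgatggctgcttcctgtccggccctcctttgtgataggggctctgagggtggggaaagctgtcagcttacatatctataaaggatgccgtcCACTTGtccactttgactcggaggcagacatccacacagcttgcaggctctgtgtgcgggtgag
Cyp2f2: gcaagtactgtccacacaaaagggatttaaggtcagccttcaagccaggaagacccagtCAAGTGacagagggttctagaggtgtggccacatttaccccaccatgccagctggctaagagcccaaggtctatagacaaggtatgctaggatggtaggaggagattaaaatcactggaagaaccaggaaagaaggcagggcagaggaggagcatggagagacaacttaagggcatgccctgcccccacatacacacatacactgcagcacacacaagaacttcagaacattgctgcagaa
Sftpa1 holds 2 copies and Cyp2f2 holds 1, and the choice of genes required at least 1. On either strand, CAAGTG stood in 11.6% of the 13400 promoters found for tested genes, in 13.9% of those over 2-fold lower in Model and in 10.8% of those over 2-fold higher. Of the 20 genes with the largest falls, 14 had a promoter in the table and 4 of these held it. A match of 6 letters is a description of the sequence and shows no binding.

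**Figure D2:**
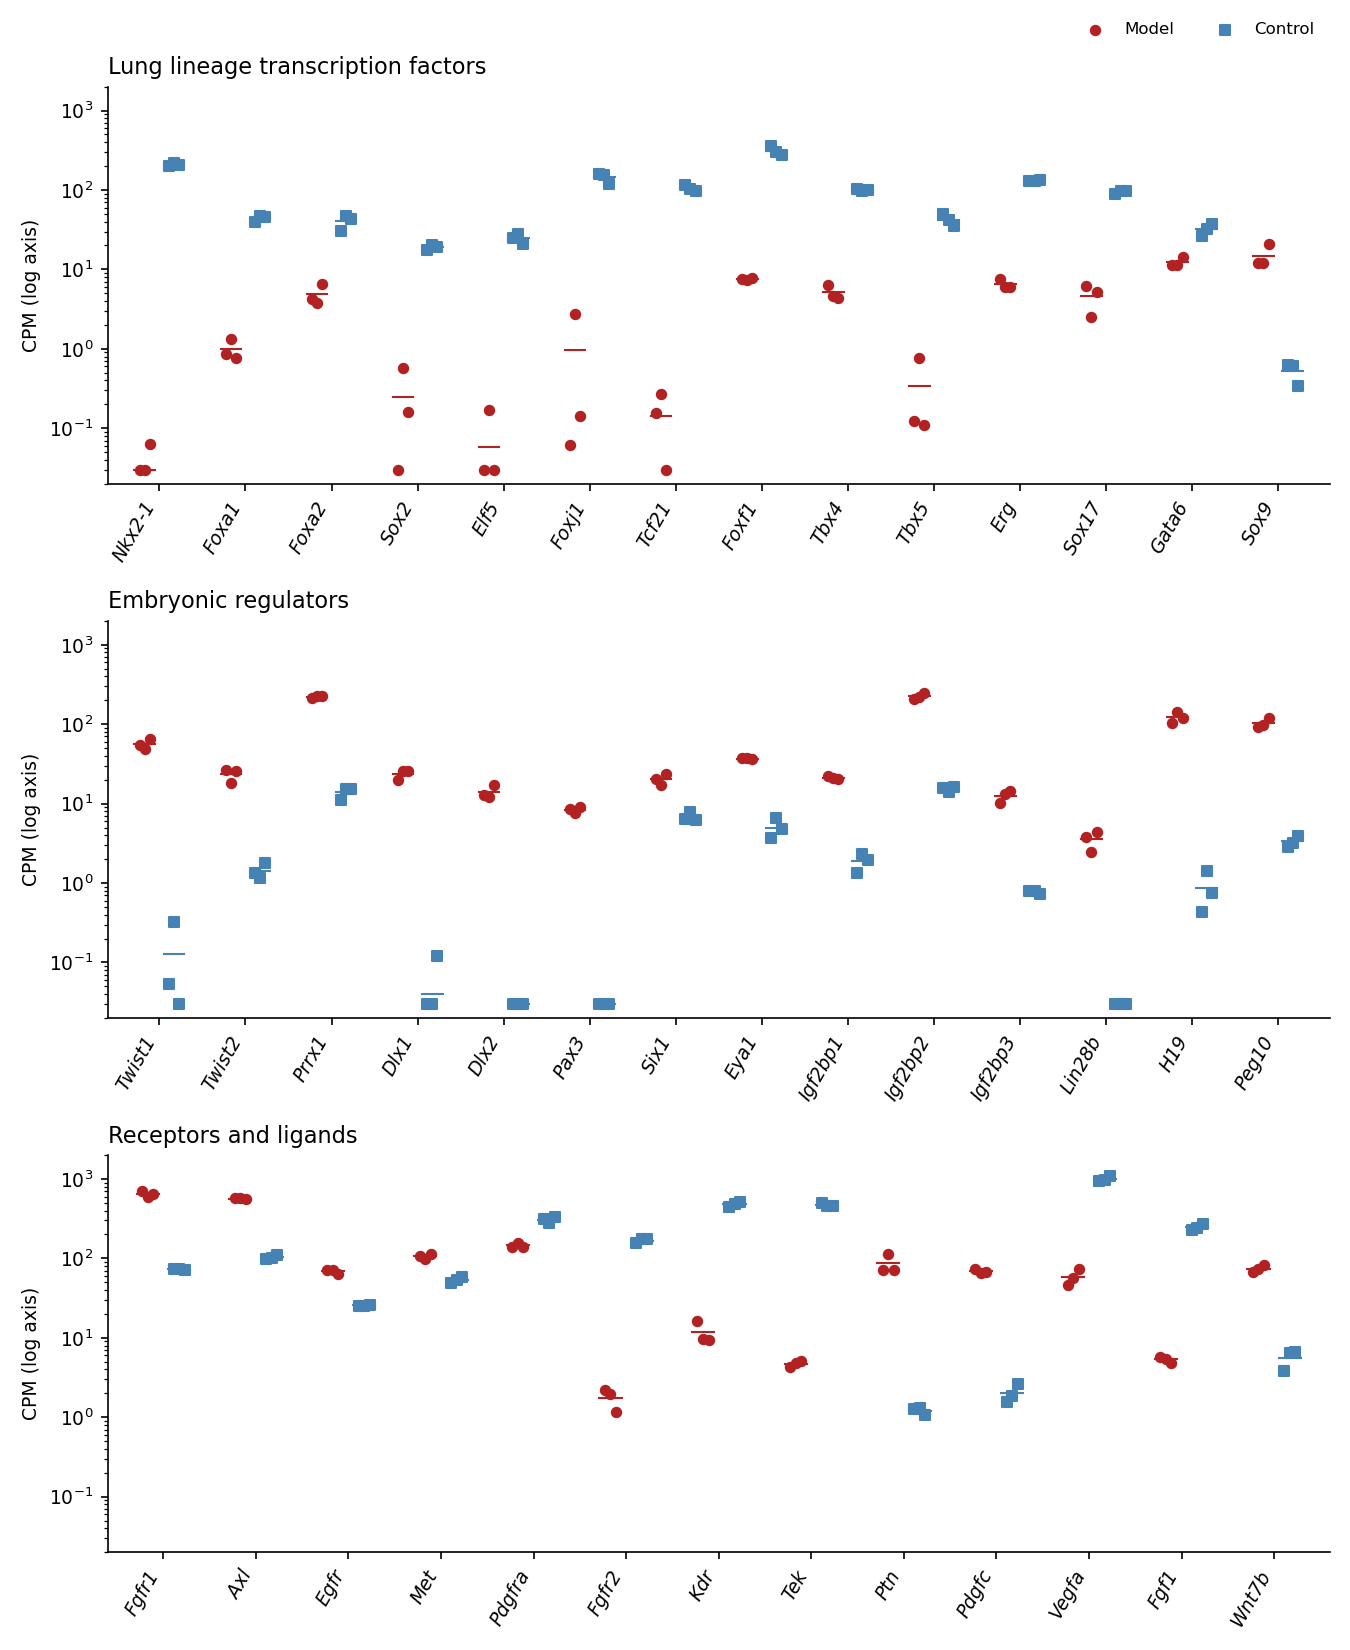
CPM of each library on a logarithmic axis for lung lineage factors (top), embryonic regulators (middle) and receptors and ligands (bottom); each symbol is 1 library, short lines are means of 3, Model stands left of Control, and values under 0.03 CPM are drawn at 0.03. Sox9 is higher and the other lineage factors plotted are lower in Model, all 14 embryonic regulators plotted are higher, and the receptors split; the genes plotted were picked from their lists after their values were seen.

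Regulators of the embryo were higher in Model as a group. Of 23 measured embryonic and stem cell regulators, 15 rose and 4 fell (median 2.71 on the log2 scale). Twist1, a mesodermal factor that drives mesenchymal behaviour, had 55.3, 48.7 and 64.5 CPM in Model, against 0.0538, 0.327 and 0 CPM in Control (8.76, SE 0.63, adjusted p = 1.86e-05). Prrx1, a homeobox factor of limb and craniofacial mesenchyme, had 214, 227 and 224 CPM in Model, against 11.1, 15.2 and 15.3 CPM in Control (4.0, SE 0.14, adjusted p = 7.41e-07). The oncofetal RNA-binding gene Igf2bp2 had 208, 218 and 245 CPM in Model, against 15.5, 13.9 and 16.1 CPM in Control (3.88, SE 0.1, adjusted p = 2.73e-07). In each case every Model library exceeded every Control library by more than 10-fold.

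Some of these regulators had no count at all in Control. Dlx2, a factor of branchial arch and forebrain, had 13, 12 and 17.2 CPM in Model and was at least 805-fold higher, taking 3 counts over the 3 Control libraries as the limit. Pax3, a factor of neural crest and muscle progenitors, had 8.45, 7.54 and 9.01 CPM in Model and was at least 478-fold higher. Lin28b, which blocks maturation of let-7 microRNAs, had 3.81, 2.43 and 4.42 CPM in Model and was at least 203-fold higher. Pax3 and Lin28b were chosen after their values were seen. The 4 that fell were Msx1 (-4.93), the intermediate filament gene Nes (-1.2), Zeb1 (-0.29) and Zeb2 (-0.24), so the Zeb repressors of E-cadherin did not rise with Twist1. With scaling by library total alone, 2 of these 4 falls passed. Zeb2 was chosen after its values were seen.

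The Hox genes, which pattern the body from head to tail in the order of their place in 4 clusters, differed by position and by cluster. Of 28 measured, 16 rose and 7 fell (median 2.61). Of the 18 at positions 1 to 7, 7 rose and 7 fell (median 0.56). Of the 10 measured at positions 8 to 13, 9 rose and 0 fell (median 6.88), and 6 more at those positions were too low to test. By cluster, all 6 measured Hoxd genes and all 4 measured Hoxc genes rose, while Hoxa had 3 higher and 3 lower of 10, and Hoxb 3 higher and 4 lower of 8. Hoxd9 had 48.8, 47.7 and 50.5 CPM in Model, against 0, 0 and 0.358 CPM in Control (8.64, SE 0.78, adjusted p = 5.93e-05). Hoxd8 had 47.2, 51.4 and 58.9 CPM in Model, against 0.359, 0.447 and 0.256 CPM in Control (7.21, SE 0.21, adjusted p = 3.85e-07). Their groups stood apart by more than 100-fold. Hoxb5 and Hoxa5, which act in lung branching, were the members with the largest falls. Hoxb5 had 3.21, 3.27 and 3.08 CPM in Model, against 23.2, 23.8 and 26.7 CPM in Control (-2.94, SE 0.13, adjusted p = 2.03e-06), and Hoxa5 12.2, 13.8 and 13.6 CPM in Model, against 42.4, 54.1 and 57.1 CPM in Control (-1.96, SE 0.13, adjusted p = 1.39e-05).

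**Figure D3:**
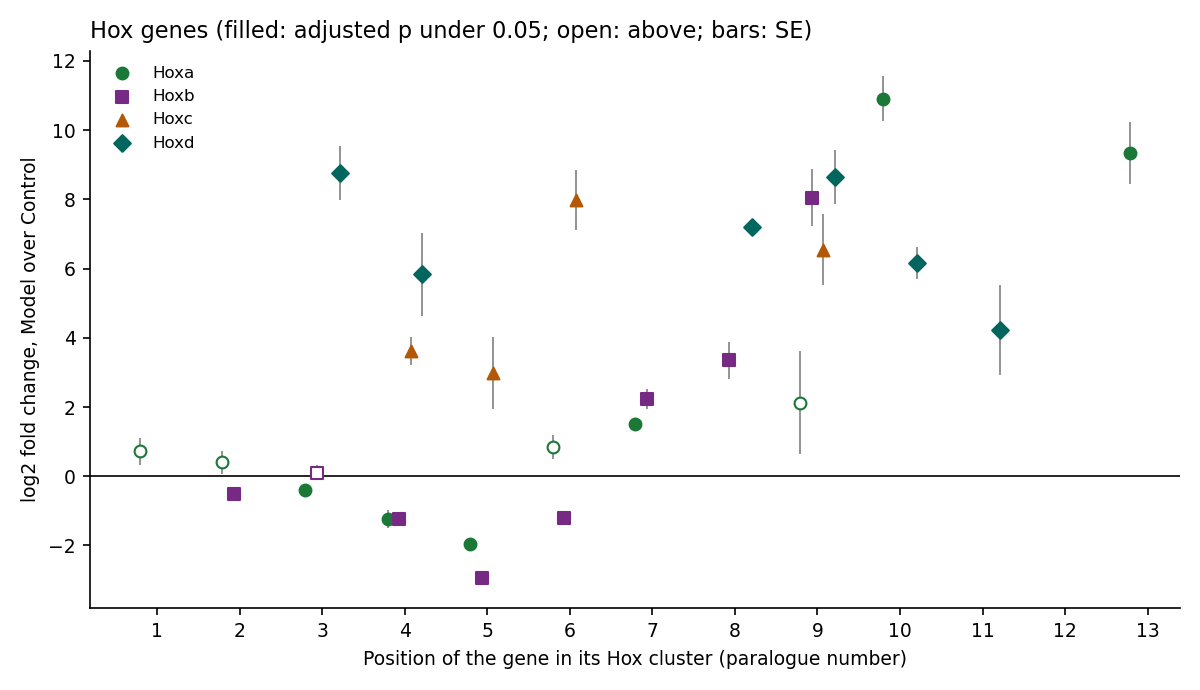
Log2 fold change, Model over Control, of the 28 Hox genes tested, by position in the cluster; bars are SE, filled symbols passed an adjusted p of 0.05, open symbols did not, and values of genes at 0 in Control depend on the fit. Values at positions 1 to 7 lie on both sides of 0 and all at positions 8 to 13 lie above it.

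Imprinted genes split. Of 23 measured, 6 rose and 9 fell (median 0.02). H19, a fetal noncoding RNA, had 105, 144 and 120 CPM in Model, against 0.43, 1.41 and 0.75 CPM in Control (7.15, SE 0.37, adjusted p = 3.88e-06). Its imprinted neighbour Igf2 had 0.0154, 3.57 and 4.33 CPM in Model, against 0.628, 0.55 and 0.222 CPM in Control, groups that overlap, and did not pass; it was chosen after its values were seen. Peg10, a retrotransposon-derived gene of placenta, had 92.9, 98.4 and 118 CPM in Model, against 2.85, 3.23 and 3.94 CPM in Control (4.95, SE 0.16, adjusted p = 5.8e-07). Plagl1, a growth-restraining zinc finger factor, had 1.31, 1.18 and 0.521 CPM in Model, against 31.4, 39.9 and 37.1 CPM in Control (-5.16, SE 0.34, adjusted p = 1.22e-05).

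Genes of cell division were higher almost without exception. All 28 measured mitosis genes rose (median 3.92), as did all 31 of DNA replication and repair (median 2.59), 29 of 30 of ribosome biogenesis (median 1.75) and 23 of 25 of nucleotide synthesis (median 1.5). Ccnb1, the cyclin that drives entry into mitosis, had 110, 93.3 and 106 CPM in Model, against 1.31, 1.12 and 2.06 CPM in Control (6.11, SE 0.23, adjusted p = 1.08e-06). Fanca, a member of the crosslink repair complex, had 153, 159 and 133 CPM in Model, against 10.2, 14.4 and 9.99 CPM in Control (3.68, SE 0.17, adjusted p = 2.18e-06). Tk1, which makes thymidine phosphate for replication, had 109, 103 and 116 CPM in Model, against 8.09, 8.25 and 9.12 CPM in Control (3.69, SE 0.08, adjusted p = 2.08e-07). In each of these genes the lowest Model library lay far above the highest Control library. The nucleolar proteins nucleolin and nucleophosmin were among the most abundant of these transcripts, with 1363, 1287 and 1413 CPM of Ncl in Model against 277, 260 and 258 CPM in Control, and 1040, 969 and 1198 CPM of Npm1 in Model against 175, 190 and 184 CPM in Control.

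The promoters of Ncapg, a condensin subunit, and Cdk1, the kinase of mitotic entry, are shown as examples from the mitosis group. They were picked among the members whose promoter holds both TTTGAA and CCAAT, which not all members do. Ncapg had 42.2, 37.6 and 50.3 CPM in Model, against 1.74, 1.1 and 2.44 CPM in Control, and Cdk1 119, 96.4 and 125 CPM in Model, against 3.95, 6.32 and 4.48 CPM in Control. Both genes were chosen after their values were seen. The windows come from RefSeq on GRCm38.p6, at chr5:45669675-45669974 on the plus strand for Ncapg and at chr10:69352863-69353162 on the minus strand for Cdk1. Capitals mark TTTGAA, the cell cycle gene homology region bound by repressor and activator complexes of the cell cycle, and ATTGG, which is the CCAAT box read on the other strand.
Ncapg: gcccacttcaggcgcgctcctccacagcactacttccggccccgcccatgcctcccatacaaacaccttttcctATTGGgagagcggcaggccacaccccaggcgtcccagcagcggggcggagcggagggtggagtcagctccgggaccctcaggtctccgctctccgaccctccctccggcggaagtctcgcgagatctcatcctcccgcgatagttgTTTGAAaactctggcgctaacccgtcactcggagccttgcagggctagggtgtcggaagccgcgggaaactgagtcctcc
Cdk1: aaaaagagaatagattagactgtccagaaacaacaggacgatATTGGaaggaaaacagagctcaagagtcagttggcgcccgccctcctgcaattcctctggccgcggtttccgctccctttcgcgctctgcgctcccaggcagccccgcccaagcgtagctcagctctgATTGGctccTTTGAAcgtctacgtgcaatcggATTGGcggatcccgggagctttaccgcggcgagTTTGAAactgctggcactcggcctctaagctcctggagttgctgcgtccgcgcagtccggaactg
Ncapg holds 1 copy of each, and Cdk1 holds 2 of TTTGAA and 3 of CCAAT, and the choice of genes required both. Of the 24 mitosis genes with a promoter in the table, 18 (75.0%) hold TTTGAA, 18 hold CCAAT and 16 hold both, counting both strands. Over all 13400 promoters the shares were 13.1% for TTTGAA and 38.2% for CCAAT. In DNA replication and repair, 13.6% of 22 promoters held TTTGAA and 63.6% held CCAAT. In ribosome biogenesis, CACGTG, the E-box letters read by Myc among other factors, stood in 7 of 24 promoters (29.2%), against 9.28% of all.

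The genes that gate entry into the cell cycle were less uniform than those that carry it out. Of 20 G1 cyclins, cyclin-dependent kinases and E2f factors, 15 rose and 3 fell (median 1.29). E2f8, an atypical E2f factor of dividing cells, had 75.4, 64.7 and 84.1 CPM in Model, against 2.13, 2.53 and 2.49 CPM in Control (4.97, SE 0.14, adjusted p = 3.52e-07), and cyclin E1, encoded by Ccne1, rose by 3.02 on the log2 scale. Of the D cyclins, Ccnd3 had 91.7, 93.4 and 94.1 CPM in Model, against 204, 199 and 206 CPM in Control (-1.12, SE 0.05, adjusted p = 2.55e-06), Ccnd2 fell by 0.51, and Ccnd1, at 276, 292 and 320 CPM in Model and 208, 253 and 271 CPM in Control, did not pass (0.28, adjusted p = 0.0616). Ccnd1 was chosen after its values were seen.

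Of 23 Cdk inhibitors and tumour suppressors, 7 rose and 10 fell (median -0.26). Cdkn1c, an imprinted inhibitor of G1 kinases, had 1.28, 1.25 and 1.14 CPM in Model, against 49.2, 41 and 33.1 CPM in Control (-5.07, SE 0.19, adjusted p = 1.03e-06). Cdkn2b, which encodes p15, had 0.432, 0.603 and 0.648 CPM in Model, against 17.2, 19.3 and 21.7 CPM in Control (-5.1, SE 0.23, adjusted p = 2.16e-06). Its neighbour Cdkn2a had 0.154, 0.804 and 0.332 CPM in Model and 0.251, 1.03 and 0.477 CPM in Control and did not pass. By contrast, Mtap, next to both genes, had 148, 147 and 167 CPM in Model, against 20.1, 22.8 and 20 CPM in Control (2.88, SE 0.09, adjusted p = 4.92e-07). Trp53, the p53 gene, had 173, 194 and 212 CPM in Model, against 43.6, 54.1 and 53.2 CPM in Control (1.94, SE 0.11, adjusted p = 6.96e-06). Cdkn1a, a main target of p53, had 189, 149 and 169 CPM in Model and 281, 144 and 112 CPM in Control, groups that overlap, and did not pass. Apc, the Wnt suppressor, did not pass either, and its Model library 1 stood apart, with 4.99, 68.3 and 69.8 CPM in Model and 116, 119 and 127 CPM in Control. Cdkn2a, Cdkn1a and Apc were chosen after their values were seen.

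Chromatin and DNA methylation enzymes were more often higher, with 17 of 27 up and 5 down (median 0.71). Uhrf1, which guides maintenance methylation to new DNA, had 109, 112 and 119 CPM in Model, against 2.83, 8.77 and 7.59 CPM in Control (4.15, SE 0.39, adjusted p = 6.88e-05). The remodeller Hells and its activator Cdca7 rose by 4.07 and 2.99 on the log2 scale. Smarca2, a catalytic subunit of the SWI/SNF remodeller, had 25.5, 25.8 and 23.2 CPM in Model, against 303, 347 and 352 CPM in Control (-3.75, SE 0.09, adjusted p = 2.15e-07), and its paralogue Smarca4 rose by 0.66. Ezh1 fell by 1.06 while its paralogue Ezh2 rose by 1.46. Smarca4 and Ezh2 were chosen after their values were seen. Of 10 telomerase and telomere genes 6 rose and 0 fell (median 0.49), with Dkc1 (1.88), Rtel1 (1.54) and Terf1 (0.79) ahead, whereas DESeq2 called 7 higher and 2 lower. Tert, the telomerase enzyme, was low, with 2.47, 4.87 and 2.02 CPM in Model and 1.63, 0.928 and 1.64 CPM in Control (1.16, adjusted p = 0.0564), and was chosen after its values were seen.

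**Figure D4:**
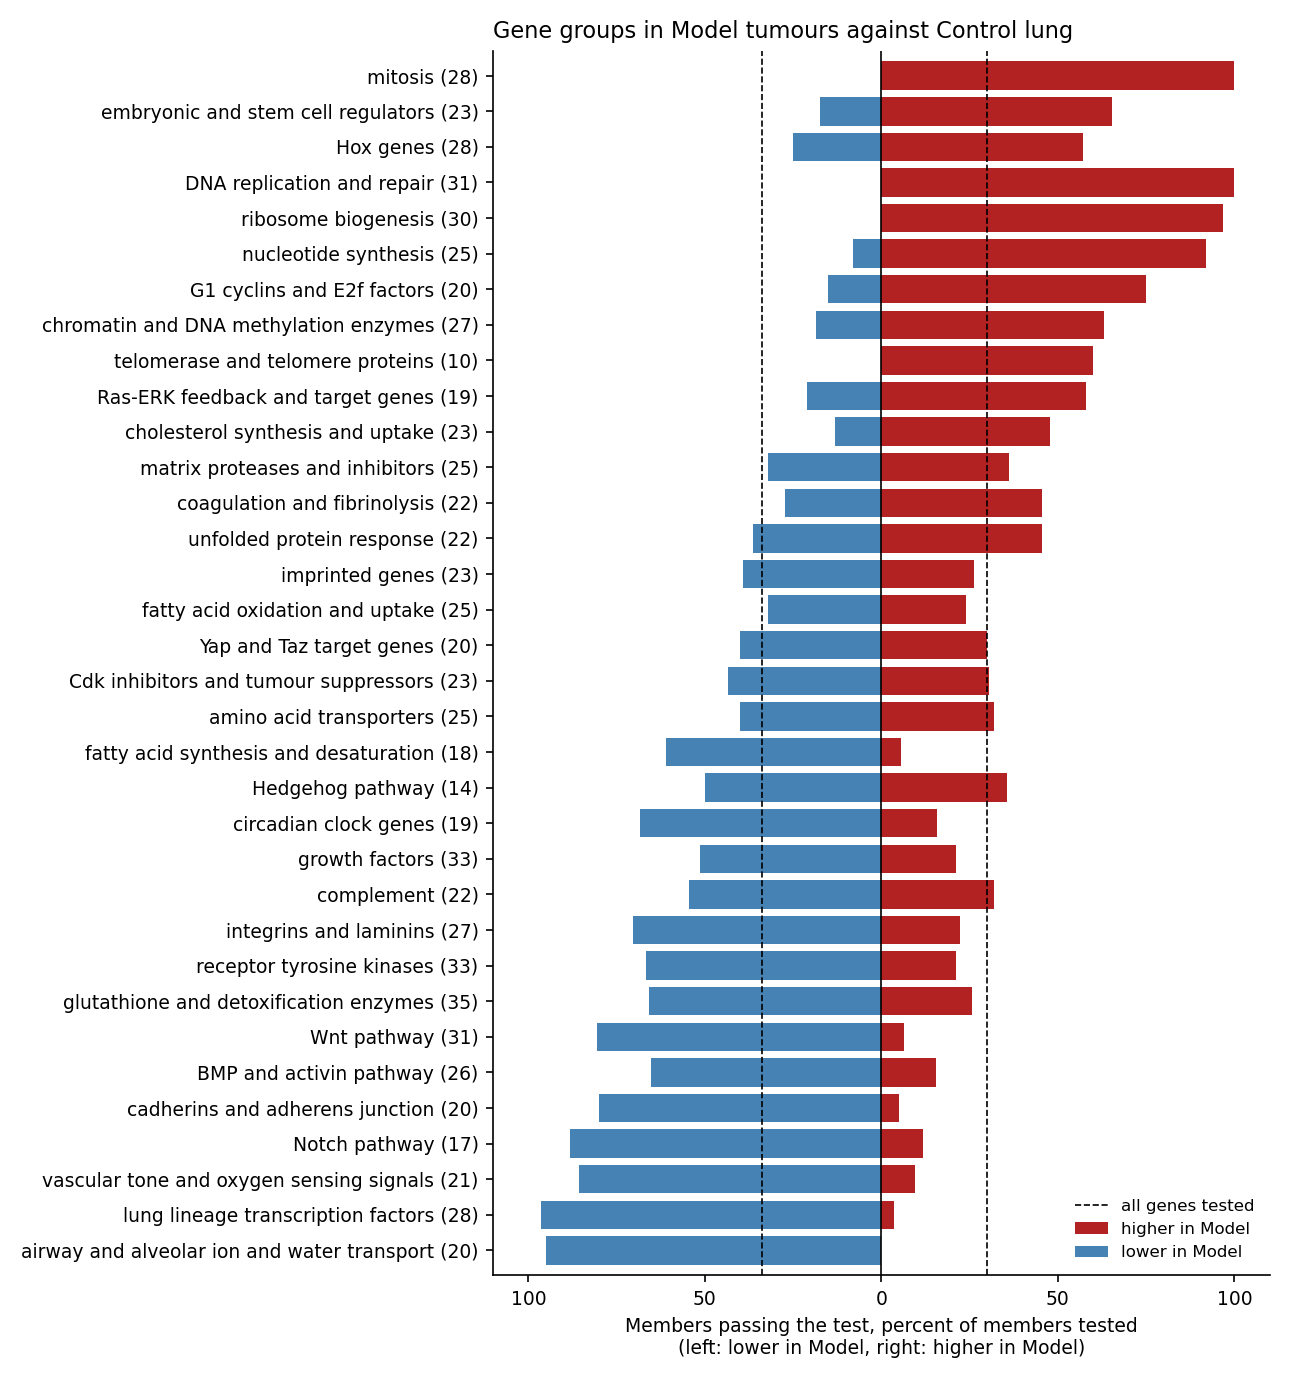
Percent of tested members of each pathway list that passed an adjusted p of 0.05, higher in Model to the right and lower to the left, with the number tested in brackets; lists are ordered by median log2 fold change. Dashed lines are the shares over all genes, 29.8% higher and 33.9% lower; all members of mitosis and of DNA replication and repair lie on the right, and ion and water transport and lung lineage factors lead on the left.

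Among receptor tyrosine kinases, many of vessels and epithelium were lower and a few others higher. Of 33 measured, 7 rose and 22 fell (median -1.75). Fgfr1, a fibroblast growth factor receptor, had 702, 591 and 649 CPM in Model, against 72.6, 73.5 and 72.4 CPM in Control (3.15, SE 0.08, adjusted p = 2.61e-07). Axl, the receptor for Gas6, had 572, 569 and 554 CPM in Model, against 98.8, 100 and 111 CPM in Control (2.45, SE 0.07, adjusted p = 3.25e-07), and Egfr, the epidermal growth factor receptor, had 70.5, 71.4 and 64.1 CPM in Model, against 25.5, 25.3 and 26.1 CPM in Control (1.42, SE 0.07, adjusted p = 3.39e-06). The endothelial receptor Kdr, which binds Vegfa, had 16.5, 9.57 and 9.51 CPM in Model, against 439, 483 and 512 CPM in Control (-5.33, SE 0.25, adjusted p = 2.73e-06). Fgfr3 had 2.07, 2.67 and 1.33 CPM in Model, against 221, 182 and 181 CPM in Control (-6.58, SE 0.26, adjusted p = 1.29e-06). No gene of these 5 had overlapping groups.

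Among 33 growth factors 7 rose and 17 fell (median -1.07). Ptn, the heparin-binding factor pleiotrophin, had 72.3, 115 and 71.9 CPM in Model, against 1.26, 1.29 and 1.06 CPM in Control (6.17, SE 0.25, adjusted p = 1.41e-06). Pdgfc, a ligand of platelet-derived growth factor receptors, had 74.1, 66.1 and 67.4 CPM in Model, against 1.54, 1.86 and 2.61 CPM in Control (5.11, SE 0.2, adjusted p = 1.25e-06). Both were low but counted in every Control library. Fgf1 fell to 5.79, 5.38 and 4.88 CPM in Model, against 230, 241 and 271 CPM in Control (-5.53), and Pdgfb to 10.7, 9.29 and 11.1 CPM in Model, against 163, 175 and 195 CPM in Control (-4.1). Both encode products that act on mesenchymal and vessel wall cells. Summed marker levels moved the same way. Smooth muscle and pericyte markers had 113 to 205 CPM in Model and 1623 to 1781 CPM in Control. General capillary markers had 200 to 272 CPM in Model and 5010 to 5598 CPM in Control. The part of either list in these falls was not tested.

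Of 19 feedback and target genes of the Ras-ERK pathway, 11 rose and 4 fell (median 0.44), and those that rose most were targets. The AP-1 factor Fosl1 had 49.6, 61 and 94 CPM in Model, against 0.484, 0 and 0.0853 CPM in Control (8.5, SE 0.72, adjusted p = 4.32e-05). The Ets factor Etv4 had 61.7, 68.6 and 72.6 CPM in Model, against 0, 0.533 and 0.307 CPM in Control (7.89, SE 0.6, adjusted p = 2.49e-05), while its relative Etv5, which type 2 cells also express, had 29.2, 35.1 and 38.2 CPM in Model, against 121, 139 and 156 CPM in Control (-2.02, SE 0.13, adjusted p = 1.26e-05). The groups stood apart for all of these. Spred3, a feedback inhibitor, rose by 3.15 on the log2 scale and the inhibitor Spry1 fell by 1.58.

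Wnt and Notch genes were mostly lower. Of 31 Wnt pathway genes 2 rose and 25 fell (median -2.29), and of 17 Notch pathway genes 2 rose and 15 fell (median -3.76). Nkd1, a Wnt target and feedback inhibitor, had 2.05, 3.14 and 1.68 CPM in Model, against 255, 216 and 228 CPM in Control (-6.66, SE 0.25, adjusted p = 9.78e-07), and the Wnt receptor Fzd4 had 15.2, 10.8 and 8.12 CPM in Model, against 253, 211 and 186 CPM in Control (-4.25). The members that rose were a ligand and an antagonist. Wnt7b, a ligand of the embryonic airway, had 67.6, 72.8 and 81.8 CPM in Model, against 3.8, 6.41 and 6.57 CPM in Control (3.73, SE 0.22, adjusted p = 7.22e-06), and Dkk2, a secreted antagonist, rose by 8.21 on the log2 scale.

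In the Notch pathway the endothelial ligand Dll4 had 4.25, 4.23 and 4.91 CPM in Model, against 105, 121 and 128 CPM in Control (-4.72, SE 0.11, adjusted p = 2.3e-07). The target gene Hey1 had 3.85, 2.77 and 3.6 CPM in Model, against 94, 104 and 104 CPM in Control (-4.88, SE 0.14, adjusted p = 3.71e-07). Rbpj, the DNA-binding partner of Notch, went the other way, with 302, 326 and 363 CPM in Model, against 59.8, 63 and 68.7 CPM in Control (2.37, SE 0.09, adjusted p = 1.25e-06), and the receptor Notch2 rose by 0.99. Endothelial markers moved with these genes: 10 of 10 general capillary markers fell, with a summed level of 200 to 272 CPM in Model and 5010 to 5598 CPM in Control. Their part in the Notch result was not tested.

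The Hedgehog pathway was mixed, with 5 of 14 genes higher and 7 lower (median -0.99). The ligand Shh had 0 counts in every Model library, against 17.4, 17.4 and 14.3 CPM in Control, and was at least 1077-fold lower (adjusted p = 7.43e-06). The target and receptor Ptch1 had 29.7, 27.8 and 28.4 CPM in Model, against 89.1, 96.8 and 113 CPM in Control (-1.8, SE 0.1, adjusted p = 5.2e-06). Gli3, a transcription factor of the pathway that mostly represses, had 71.3, 76.4 and 71.9 CPM in Model, against 4.73, 5.77 and 7.4 CPM in Control (3.61, SE 0.17, adjusted p = 2.44e-06), and the co-receptors Cdon and Gas1 rose by 2.44 and 1.91. The co-receptor Boc fell by 2.58.

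BMP and activin signalling genes were mostly lower, 17 of 26 against 4 higher (median -2.6). Acvrl1, the endothelial BMP9 receptor known as Alk1, had 13.9, 13.7 and 13.5 CPM in Model, against 807, 743 and 785 CPM in Control (-5.83, SE 0.07, adjusted p = 6.24e-08). The inhibitory Smad gene Smad6, itself a BMP target, fell by 6.8 and the ligand gene Bmp6 by 7.12. The antagonist Grem1 had 8.09, 5.02 and 10 CPM in Model, against 1.04, 1.34 and 0.631 CPM in Control (2.94, SE 0.4, adjusted p = 0.000518), and the signal transducers Smad1 and Smad5 rose by 0.51 and 0.54. Among 20 Yap and Taz genes 6 rose and 8 fell (median -0.15). The classic targets Ccn1 and Ccn2 fell by 3.88 and 3.89, with Ccn1 at 36.4, 33.4 and 37.8 CPM in Model, against 392, 580 and 611 CPM in Control, while the DNA-binding partners Tead1 and Tead2 rose by 1.13 and 1.86.

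Genes of cell junctions and of epithelial ion transport were mostly lower. Of 20 cadherin and adherens junction genes 1 rose and 16 fell (median -2.87). E-cadherin, encoded by Cdh1, had 1.5, 3.2 and 1.17 CPM in Model, against 316, 359 and 365 CPM in Control (-7.46, SE 0.39, adjusted p = 4.02e-06). N-cadherin, encoded by Cdh2, had 21.6, 21.6 and 27.2 CPM in Model, against 5.97, 7.48 and 8.27 CPM in Control (1.7, SE 0.17, adjusted p = 0.00011). The groups did not overlap for either gene, and endothelial cadherin, encoded by Cdh5, fell by 4.3. Of 20 genes for ion and water transport across airway and alveolus 0 rose and 19 fell (median -5.41). Aqp5, the water channel of type 1 cells, had 0.896, 1.52 and 0.917 CPM in Model, against 273, 308 and 293 CPM in Control (-8.02, SE 0.22, adjusted p = 3.25e-07). Scnn1a, a subunit of the epithelial sodium channel, had 2.42, 4.15 and 1.68 CPM in Model, against 362, 331 and 345 CPM in Control (-6.97, SE 0.34, adjusted p = 2.89e-06). The member that did not pass was the water channel Aqp3, with 0.818, 2.61 and 0.474 CPM in Model and 1.13, 2.27 and 2.13 CPM in Control, and it was chosen after its values were seen.

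Integrin and laminin genes fell in 19 of 27 cases and rose in 6 (median -1.54). Itga8, an integrin of lung mesenchyme, had 0.0772, 1.51 and 0.0316 CPM in Model, against 210, 230 and 260 CPM in Control (-8.71, SE 0.89, adjusted p = 0.000115). Lamb3, part of the laminin under epithelium, had 1.19, 0.861 and 0.221 CPM in Model, against 92.5, 120 and 138 CPM in Control (-7.26, SE 0.47, adjusted p = 1.09e-05). Lamb1, found in embryonic and vessel laminins, had 588, 627 and 646 CPM in Model, against 157, 147 and 162 CPM in Control (2.0, SE 0.07, adjusted p = 6.72e-07). Itgav and Itga5, whose products bind vitronectin and fibronectin, rose by 1.68 and 1.01. Of 25 matrix proteases and inhibitors 9 rose and 8 fell (median 0.26). The cathepsin gene Ctsl had 1287, 1299 and 1434 CPM in Model, against 248, 221 and 228 CPM in Control (2.53, SE 0.08, adjusted p = 4.12e-07), and the inhibitors moved apart, with Timp1 higher by 2.28 and Timp3 lower, at 27.4, 25.1 and 22 CPM in Model against 771, 700 and 849 CPM in Control.

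Signals of vascular tone and oxygen sensing fell for the most part, with 18 of 21 lower and 2 higher (median -4.38). The largest rise in the list was that of Agtr2, by 5.19 on the log2 scale. Ace, the angiotensin-converting enzyme of lung capillaries, had 25, 26.9 and 24.7 CPM in Model, against 1478, 1316 and 1291 CPM in Control (-5.74, SE 0.09, adjusted p = 1.1e-07). Adm, the vasodilator adrenomedullin, had 93.9, 100 and 110 CPM in Model, against 8.84, 10.3 and 14.8 CPM in Control (3.16, SE 0.2, adjusted p = 9.14e-06). The subunits of its receptor, Calcrl and Ramp2, fell by 6.07 and 5.04, so the ligand and its receptor moved in opposite directions. Endothelial markers fell with these genes, 10 of 10 of general capillaries (median -4.25) and 8 of 8 of aerocytes (median -4.74), and their part in the result was not tested. Egln3, an oxygen-sensing hydroxylase induced by hypoxia, is no member of this list but was among the 20 genes with the largest rise. It had 161, 211 and 203 CPM in Model, against 3.48, 2.13 and 3.26 CPM in Control (6.02, SE 0.22, adjusted p = 9.2e-07).

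Of 22 coagulation and fibrinolysis genes 10 rose and 6 fell (median 0.24). Thbd, the endothelial anticoagulant thrombomodulin, had 19.4, 21.7 and 20.1 CPM in Model, against 915, 857 and 895 CPM in Control (-5.45, SE 0.08, adjusted p = 8.58e-08), and the von Willebrand factor gene Vwf fell by 4.05. F13a1, a crosslinking enzyme of macrophages and platelets, had 307, 260 and 278 CPM in Model, against 10.7, 12.9 and 11.8 CPM in Control (4.58, SE 0.11, adjusted p = 2.1e-07). Plau, the urokinase that activates plasminogen, had 98.2, 123 and 120 CPM in Model, against 10.8, 14 and 12.8 CPM in Control (3.18, SE 0.13, adjusted p = 1.59e-06). Complement genes were lower in 12 of 22 cases and higher in 7 (median -1.1). The terminal components C7 and C6 fell by 7.43 and 5.73, whereas Masp1, a protease of the lectin pathway, had 93.5, 124 and 107 CPM in Model, against 3.78, 3.8 and 3.39 CPM in Control (4.88, SE 0.13, adjusted p = 3.25e-07).

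Lipid genes did not move as 1 block. Fatty acid synthesis and desaturation had 1 of 18 genes higher and 11 lower (median -0.79). Scd1, the desaturase that type 2 cells use for surfactant lipid, had 101, 97.1 and 98.9 CPM in Model, against 1041, 1561 and 1927 CPM in Control (-3.93, SE 0.22, adjusted p = 6.14e-06). Elovl6, a fatty acid elongase, was the member that rose, with 49.7, 49.8 and 49.9 CPM in Model, against 4.75, 4.4 and 5.22 CPM in Control (3.38, SE 0.1, adjusted p = 4.12e-07). Cholesterol synthesis and uptake had 11 of 23 higher and 3 lower (median 0.35), and no gene that passed rose by more than 1.02 on the log2 scale. Ebp, a sterol isomerase, had 11, 11.6 and 11.9 CPM in Model, against 38.1, 40.2 and 39 CPM in Control (-1.76, SE 0.09, adjusted p = 3.26e-06).

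In fatty acid oxidation and uptake, 6 of 25 genes rose and 8 fell (median -0.13), and 11 did not pass. Cd36, a fatty acid carrier of capillaries and macrophages, had 57.5, 42.6 and 37.2 CPM in Model, against 1095, 957 and 955 CPM in Control (-4.45, SE 0.18, adjusted p = 1.42e-06). Cpt1c, the brain form of carnitine palmitoyltransferase, had 65.2, 58.3 and 62.7 CPM in Model, against 8.07, 9.52 and 10.5 CPM in Control (2.73, SE 0.12, adjusted p = 1.81e-06). Lpl, lipoprotein lipase, spread widely within Model, with 62.7, 20.5 and 8.53 CPM, against 152, 121 and 116 CPM in Control (-2.08, SE 0.64, adjusted p = 0.0242), and over the alternative settings its adjusted p ran from 0.000759 to 0.134, the highest in a fit over all 12 libraries.

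Among 25 amino acid transporters 8 rose and 10 fell (median -0.26). Slc7a5, the large neutral amino acid exchanger LAT1, had 209, 191 and 199 CPM in Model, against 9.34, 6.81 and 6.09 CPM in Control (4.75, SE 0.17, adjusted p = 8.92e-07). Slc3a2, the heavy chain that carries it to the membrane, had 175, 155 and 174 CPM in Model, against 278, 242 and 220 CPM in Control (-0.55, SE 0.1, adjusted p = 0.00205), and was chosen after its values were seen. Slc6a14 and Slc38a5 had 0 counts in Model, against 44.4, 49.2 and 51.1 CPM and 34, 36.5 and 43.2 CPM in Control, and were at least 3181-fold and 2502-fold lower. Slc6a14 carries neutral and basic amino acids in airway epithelium, and Slc38a5 carries glutamine.

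Detoxification was lower on the whole, with 23 of 35 genes lower and 9 higher (median -2.27). Cyp4b1, a lung cytochrome, had 3.85, 6.3 and 5.53 CPM in Model, against 768, 701 and 694 CPM in Control (-7.11, SE 0.21, adjusted p = 3.85e-07). The rising members include targets of the oxidant-sensing factor Nrf2. Hmox1, haem oxygenase 1, had 491, 208 and 363 CPM in Model, against 31.8, 32.5 and 33 CPM in Control (3.45, SE 0.3, adjusted p = 4.92e-05), and the glutathione reductase gene Gsr and the sulfiredoxin gene Srxn1 rose by 1.78 and 1.55. Every Model library exceeded every Control library in these 3 genes, with library 1 highest in Hmox1. In the unfolded protein response 10 of 22 genes rose and 8 fell (median 0.14). The stress sensor gene Ern1 and the disulphide isomerase gene P4hb rose by 1.03 and 0.92, and Herpud1, which serves degradation of misfolded proteins, fell by 1.95.

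Of 19 circadian clock genes 3 rose and 13 fell (median -1.07). Nr1d1, the repressor Rev-erb alpha, had 13.9, 15.1 and 15.4 CPM in Model, against 101, 122 and 112 CPM in Control (-2.92, SE 0.09, adjusted p = 5.44e-07), and Ciart, an output gene and repressor, had 6.41, 5.57 and 7.55 CPM in Model, against 35.7, 33 and 32.7 CPM in Control (-2.38, SE 0.14, adjusted p = 7.12e-06). The rises, in Bhlhe41, Nfil3 and Cry1, were 0.77, 0.64 and 0.63. The hour at which the tissues were taken is missing from the sources used here, so time of day and group cannot be told apart.

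Markers of lung endothelium and alveolar fibroblasts fell. All 10 general capillary, all 8 aerocyte, all 7 lymphatic and all 12 alveolar fibroblast markers fell, with medians of -4.25, -4.74, -3.36 and -7.33. Summed over the list, aerocyte markers had 137 to 141 CPM in Model, against 2330 to 2523 CPM in Control, and alveolar fibroblast markers had 222 to 244 CPM in Model, against 6093 to 6468 CPM in Control. Car4, the carbonic anhydrase of aerocytes, which are the wide gas-exchange capillary cells, had 0.51, 0.746 and 0.964 CPM in Model, against 248, 228 and 223 CPM in Control (-8.3, SE 0.21, adjusted p = 2.44e-07). Adgrf5, an adhesion receptor of capillaries, kept 38.2, 25.9 and 26.4 CPM in Model, against 1739, 1513 and 1599 CPM in Control (-5.74, SE 0.19, adjusted p = 6.06e-07), and Plvap, of fenestrated vessels, 43.6, 31.6 and 37.7 CPM in Model, against 709, 674 and 628 CPM in Control. Endothelial transcripts were thus low in Model but above 25 CPM for both genes.

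Of 14 smooth muscle and pericyte markers 13 fell and 1, Rgs5, rose (median -4.13). Tagln, an actin-binding protein of smooth muscle, had 6.66, 10.9 and 5.17 CPM in Model, against 220, 241 and 219 CPM in Control (-4.9, SE 0.28, adjusted p = 6.21e-06). Rgs5, a regulator of G-protein signals in pericytes, had 31.4, 27.4 and 29.7 CPM in Model, against 8.63, 8.75 and 6.39 CPM in Control (1.9, SE 0.15, adjusted p = 3.43e-05). Adventitial fibroblast markers split evenly, 5 higher and 5 lower (median -0.06). Their summed level was 1951 to 2297 CPM in Model and 591 to 739 CPM in Control. That sum does not stand for these fibroblasts alone. Igfbp4, with a mean of 1266 CPM in Model and 255 CPM in Control, made up most of it in Model. Lum, the collagen-binding lumican, had 101, 120 and 124 CPM in Model, against 5.42, 5.47 and 7.67 CPM in Control (4.22, SE 0.17, adjusted p = 1.37e-06), and Serpinf1, which encodes an antiangiogenic serpin, had 296, 302 and 300 CPM in Model, against 20.7, 22.8 and 27.6 CPM in Control (3.66, SE 0.12, adjusted p = 5.41e-07). The falling ones included the surface peptidase gene Dpp4 (-5.55), Pi16 (-2.74) and Clec3b, which encodes the secreted tetranectin (-5.32).

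Myeloid markers moved in different directions. Of 15 macrophage markers 12 rose and 3 fell (median 1.55), with a summed level of 3075 to 3520 CPM in Model and 1355 to 1539 CPM in Control. Apoe, with a mean of 1353 CPM, and Spp1, with 737 CPM, made up most of this sum in Model. It therefore does not stand for macrophages alone. Of 11 monocyte markers 2 rose and 8 fell (median -2.67), with 584 to 626 CPM in Model and 2175 to 2336 CPM in Control. That sum does not stand for monocytes alone, since Vcan, with a mean of 483 CPM, made up most of it in Model, and Ace, with a mean of 1362 CPM, and Nr4a1, with 557 CPM, most of it in Control. Spp1, the secreted matrix protein osteopontin, had 721, 704 and 787 CPM in Model, against 162, 57.7 and 49.9 CPM in Control (3.04, SE 0.45, adjusted p = 0.000813), and the folate receptor gene Folr2 rose by 3.07. Lyve1, a hyaluronan receptor of interstitial macrophages and lymphatics, fell to 89.8, 62.2 and 86.3 CPM in Model, against 368, 244 and 240 CPM in Control (-1.84, SE 0.21, adjusted p = 0.00021). Mertk (-0.36) and Cd14 (-0.31) fell by little and lost the call under scaling by library total alone and under limma. Vcan, which monocytes and matrix-making cells both express, had 491, 471 and 486 CPM in Model, against 5.58, 7.75 and 5.9 CPM in Control (6.23, SE 0.15, adjusted p = 2.11e-07).

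Dendritic cell markers fell in 10 of 12 cases and rose in 1 (median -2.67). The migration receptor gene Ccr7 had 1.61, 1.92 and 0.79 CPM in Model, against 24.3, 23.7 and 22.4 CPM in Control (-4.02, SE 0.33, adjusted p = 3.43e-05). Fscn1, an actin-bundling protein of mature dendritic cells that tumour cells also express, had 359, 410 and 425 CPM in Model, against 18, 24.1 and 33.1 CPM in Control (3.99, SE 0.23, adjusted p = 6.21e-06). It made up most of the list's summed level in Model, which was 420 to 473 CPM, against 238 to 287 CPM in Control. Among regulatory T cell and innate lymphoid markers 2 of 10 rose and 4 fell. Il1rl1, the interleukin 33 receptor, had 76.8, 69.3 and 65.3 CPM in Model, against 7.01, 6.31 and 7.21 CPM in Control (3.36, SE 0.1, adjusted p = 4.45e-07), and Gata3, the factor of type 2 lymphoid cells, fell by 4.57. Of 8 mast cell and basophil markers 3 rose and 1 fell (median 1.43), all 3 that rose being under 2 CPM on average in Model. Their summed level was 13.4 to 19.3 CPM in Model and 97.5 to 113 CPM in Control, with Hdc, the histamine-forming enzyme gene that fell by 3.57, making up most of the Control sum. Of 7 nerve and Schwann cell markers 2 rose and 3 fell (median -0.27), and of 8 neuroendocrine markers 1 rose and 4 fell (median -2.81). Of 133 immunoglobulin variable segments tested, 0 were higher and 42 lower (median -1.89).

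**Figure D5:**
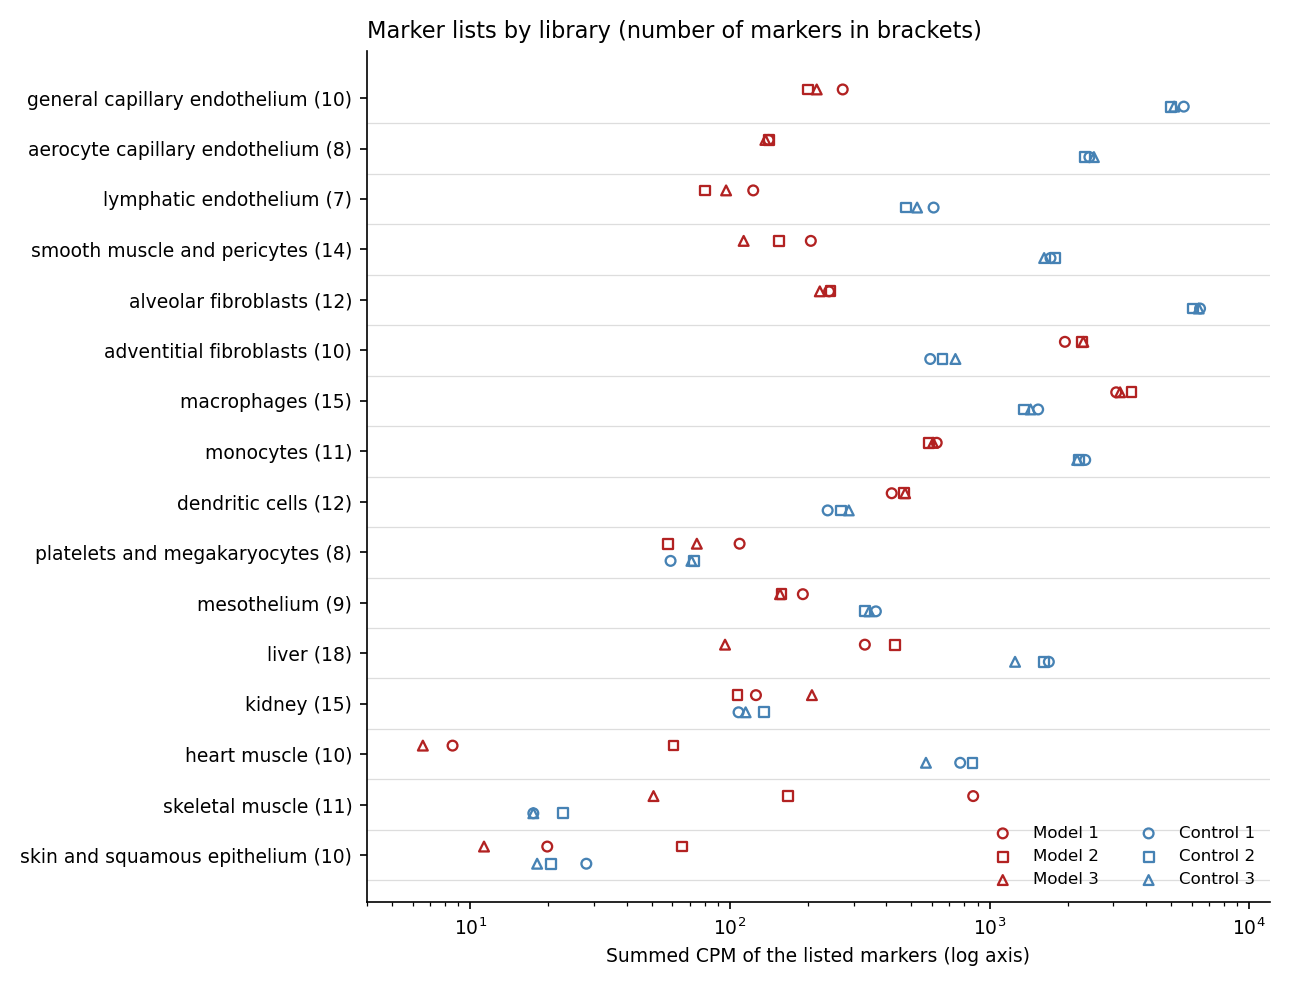
Summed CPM of each marker list by library on a logarithmic axis, with the number of markers in brackets; red is Model, drawn above blue Control, and the symbol shape gives the library number. Endothelial, smooth muscle and alveolar fibroblast lists lie lower in Model, adventitial fibroblast and macrophage lists higher, and the liver, muscle and squamous lists differ between Model libraries.

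The lists of other tissues varied from library to library. Of 11 skeletal muscle genes 8 rose and 0 fell (median 3.7), led in Model library 1, where the myosin gene Myh1 had 329 CPM, against 25.4 and 3.05 CPM in Model libraries 2 and 3 and 0, 0 and 0.0512 CPM in Control. Its SE was 2.7 on the log2 scale, and over the alternative settings its adjusted p ran from 1.12e-07 with DESeq2 to 0.487 with voom and library weights, under which 2 of the 11 genes were higher. Heart muscle genes had 8.55, 60.7 and 6.57 CPM in Model, against 771, 859 and 569 CPM in Control, and 7 of 9 fell (median -4.72), among them Actc1, the cardiac actin gene (-7.39), and Myh6, an atrial myosin gene (-5.44). Of 18 liver genes 0 rose and 2 fell, Hp and Trf, which lung also makes, and without Model library 3 the number higher was 7. Of 9 mesothelial genes 2 rose and 6 fell (median -4.25). Bnc1, a zinc finger factor of mesothelium and squamous cells, had 47.8, 54 and 43.3 CPM in Model, against 2.53, 1.15 and 2.81 CPM in Control (4.48, SE 0.33, adjusted p = 2.04e-05).

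Some genes were found in 1 group only. They were picked by their levels in these same libraries, so their calls follow from the choice and add no support. With a mean of at least 1 FPKM in the other group, 47 genes had 0 counts in every Control library, and 37 of these were tested and called higher. Plac1, a placental gene on the X chromosome, had 52.6, 41.2 and 41.2 CPM in Model and was at least 2586-fold higher. The transposase-derived gene Pgbd5 had 33.4, 33.8 and 40.4 CPM in Model (at least 2059-fold), and Zic2, a zinc finger factor of the neural plate, 26.9, 27.2 and 31.6 CPM in Model (at least 1639-fold). All 3 were even across the Model libraries. In the other direction 135 genes had 0 counts in every Model library, and 128 of these were tested and called lower. Mlc1, a membrane protein known from astrocytes, had 54.4, 60.9 and 59.9 CPM in Control and was at least 3854-fold lower in Model, and Sfta2, a surfactant-associated gene, 60.4, 55.8 and 42.5 CPM in Control and at least 3478-fold lower.

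Other large rises that belong to no list above were in Hmga2, Rhox5, Myc, S100a4 and Ank. Hmga2, a fetal chromatin protein, had 422, 462 and 520 CPM in Model, against 0.287, 0.0344 and 0.0171 CPM in Control. S100a4, a calcium-binding protein linked to cell motility, had 606, 701 and 674 CPM in Model, against 24.8, 29.6 and 29.4 CPM in Control (4.56, SE 0.11, adjusted p = 2.08e-07). Ank, a pyrophosphate transporter, had 422, 480 and 522 CPM in Model, against 13.8, 16.5 and 20.1 CPM in Control (4.82, SE 0.17, adjusted p = 7.68e-07). Further large falls were in Tmem100, an endothelial target of BMP signals, with 2.05, 1.52 and 1.86 CPM in Model, against 559, 504 and 508 CPM in Control (-8.17, SE 0.14, adjusted p = 1.31e-07), and in Cldn18, the tight junction claudin of alveolar cells (-11.73), and Lamp3, a lamellar body protein of type 2 cells (-11.76). The groups did not overlap in any of these genes.

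By chromosome, the share of genes higher in Model ran from 23.8% on chromosome 7 to 43.3% on chromosome 19, and the share lower from 25.3% on chromosome 13 to 39.4% on chromosomes 4 and X, leaving out Y with its 7 genes and the mitochondrial genome. On chromosome 19, 298 of 689 genes were higher (median 0.31). Of 34 mitochondrial genes 27 were lower (median -1.33). The mitochondrial share of all counts was 1.95% to 2.14% in Model and 2.15% to 2.36% in Control. Atp6-ps, by its name a pseudogene of mitochondrial Atp6, lies outside that genome. It had a mean of 1939 FPKM in Model and 1538 FPKM in Control. Reads of mitochondrial genes may stand under such copies, so the falls and the share need not measure mitochondrial RNA. Of 1756 processed pseudogenes 470 were higher and 91 lower (median 0.43), and many of them are copies of ribosomal protein genes that may share reads with their parents. The ribosomal RNA repeat Rn18s-rs5 had 3439, 3214 and 9653 CPM in Model, against 2031, 2447 and 2708 CPM in Control (1.18, SE 0.42, adjusted p = 0.0421), with Model library 3 far above the others. Over the alternative settings its adjusted p ran from 0.00764 to 0.358.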

How the data were processed

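Libraries of 3 Model and 3 Control samples, made with a SMARTER mRNA-Seq kit per the labels, were compared. The authors deposited 1 table of gene counts and FPKM for 36254 genes. The deposited counts are whole numbers of reads per gene with no normalization, per the file headers, and the deposited FPKM are those counts scaled by gene length and library total by the authors, per the file headers. The submitters' processing notes name the build mm10. The sources used here name no aligner, counter or strand setting, so genes that overlap or lie antisense may hold each other's reads. So may near copies (the Rhox2 genes, Hmga1 and Hmga1b, haemoglobins, ribosomal genes and their pseudogenes, and mitochondrial genes and their copies).

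Counts were tested with edgeR 4.0.16 in R 4.3.3: filterByExpr (21446 genes kept), TMM scaling, the quasi-likelihood test of Model against Control over the 6 libraries, with p-values adjusted by Benjamini-Hochberg over all 21446 genes and a threshold of 0.05. The script was tested on simulated data. FPKM served for levels within a library and, as log2(FPKM + 1), for ranking. Alternatives were DESeq2 1.42.0, limma 3.58.1 on log2 FPKM (pseudocounts 1 and 0.1, minimum 0.5) and voom, other scalings and filters, a test against a 2-fold change, a fit over all 12 libraries, leaving out genes of other tissues, and leaving out each library in turn. Depth was 56542745 to 67174761 counts per library.

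Gene lists numbered 58, and 1052 of their 1059 symbols were matched. The lists and the comparison were chosen with earlier results of these data known. A summed level adds the CPM of a list's matched members. Named genes followed a rule: among called genes, the 20 largest rises and falls in mean log2(FPKM + 1) with groups that did not overlap, the 3 largest each way in each list, the 10 most abundant of each group, up to 10 each way found in 1 group only, and the 5 most abundant that did not pass. The first of these passed over predicted and mitochondrial genes and antigen receptor segments. Genes outside the rule are said to be so in the text.

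Where a group had 0 counts, the fold printed is a bound, with 3 counts spread over that group's libraries in place of 0, and covers counting error only. Promoter sequences are from RefSeq (GRCm38.p6), and 13400 of the 21446 genes tested had one. No coordinates of the table itself are given, since only 1.94% of the 33734 gene IDs shared with the GRCm38 annotation have equal positions in both.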

Additional observations from a re-analysis of the deposited data

How the results depend on the processing

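The 13648 calls kept their sign under every setting in which the same genes were called again. DESeq2 called 6372 genes higher and 7670 lower in Model, voom with weighted libraries 6841 and 7873, the limma test of log2(FPKM + 1) 6687 and 5489, and a fit over all 12 libraries 6688 and 6791. Other scalings gave 6202 to 6847 higher and 6959 to 7450 lower. A test against a 2-fold change called 2475 higher and 4584 lower, since it asks for more than a difference. Over 2-fold, limma on log2(FPKM + 1) called 3062 lower against 5544. It tested 16256 genes by another method, and with a pseudocount of 0.1 in place of 1 it called 3833 lower. Leaving out each library in turn gave 5971 to 6172 genes higher and 6646 to 7360 lower, and over 2-fold 3295 to 3475 higher and 5228 to 5770 lower. The median change of all genes lay between -0.14 and 0.15 over the settings. No paired analysis was possible because the labels give Model and Control no shared replicate numbers.

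No named gene reversed. Of the 323 named genes tested, 1 lost its call with DESeq2, 9 in the fit over all 12 libraries, 4 with scaling by library total alone, 6 to 11 without 1 of the libraries and 47 in the test against a 2-fold change. Counts in some lists moved by over 1.5 times. Neuroendocrine markers called lower numbered 4, but 1 in the fit over all 12 libraries. Telomere genes called lower numbered 0, but 2 with DESeq2 and with median ratio scaling. Skeletal muscle genes called higher numbered 8, but 5 in the fit over all 12 libraries and 2 with voom. Liver genes called higher numbered 0, but 7 without Model library 3. Embryonic regulators called lower numbered 4, but 2 with scaling by library total alone. Cholesterol genes called lower numbered 3, but 5 with DESeq2. Fatty acid oxidation genes called lower numbered 8, but 5 in the fit over all 12 libraries. The cause was not tested for any of these. With 3 libraries a group and no record of separate animals, the spread between mice is unknown. Levels under 0.1 CPM rest on a few counts, so fold changes that involve them are loose.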

Other observations

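Single Model libraries stood apart in small sets of genes, picked after the values were seen: a level under 1 in 4 of the lowest of the other 2 Model libraries, themselves at 10 CPM or more, or a level of at least 20 CPM and over 8 times the others. Model library 1 was low in 4 genes and high in 5, all of the 5 being genes of striated muscle. Myh2, a fast myosin, had 48, 2.48 and 1.58 CPM in Model, against 0.179, 0.137 and 0 CPM in Control. Tmem170b, a membrane protein, had 0.355, 23.1 and 24 CPM in Model, against 27.8, 30.4 and 30 CPM in Control.

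Model library 2 was low in 2 genes and high in 10, which were airway secretory and squamous epithelial genes for the most part. Bpifa1, a secreted defence protein of upper airways, had 0, 98.9 and 0.269 CPM in Model, against 209, 327 and 225 CPM in Control. Krt4, a keratin of squamous epithelium such as oesophagus, had 0, 81.7 and 0.0474 CPM in Model and 0, 0 and 0 CPM in Control, and Krt13, its partner, had 0.0463, 94.9 and 0.142 CPM in Model and 0.341, 0.825 and 0.307 CPM in Control.

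Model library 3 was low in 19 genes and high in 2. Apoa1, a plasma apolipoprotein made by liver, had 16.7, 19 and 0 CPM in Model and 3.52, 3.61 and 0 CPM in Control. Kap, an androgen-regulated gene of kidney, had 0.788, 0.804 and 33.2 CPM in Model and 5.56, 2.2 and 0.801 CPM in Control.

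Some of these genes stand under more than 1 gene ID, between which the reads were divided differently from library to library. Nnt, the mitochondrial transhydrogenase, had 3.78, 22 and 89.3 CPM in Model and 20.4, 1.99 and 17.9 CPM in Control under 1 ID, and 72.7, 61.8 and 0 CPM in Model and 0, 21.9 and 4.42 CPM in Control under the other. Summed over its 2 IDs it had 76.5, 83.8 and 89.3 CPM in Model, against 20.4, 23.9 and 22.3 CPM in Control, and the groups did not overlap. Septin2, a cytoskeletal gene that was low in Model library 2 under 1 ID, had 368, 351 and 370.0 CPM in Model, against 240.0, 251 and 276 CPM in Control, over its 2 IDs.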
